A study of Mus musculus with 41 samples.

Results

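The semaphorin, plexin, Slit, Robo, ephrin and Eph genes were taken from 4 tables of RNA counts by symbol, and 58 of the 24371 genes in each table belonged to these families. They comprised 20 semaphorins, 9 plexins, 3 Slits, 4 Robos, 8 ephrins and 14 Eph receptors. The study asked how glucocorticoid acts on mesenchymal cells of the fetal mouse lung, using dexamethasone, a synthetic ligand of the glucocorticoid receptor. In the first experiment dams received 1 mg/kg dexamethasone or saline by intraperitoneal injection at embryonic day E18.5, and fetal lungs were collected 2 h later. All fetuses in it carried Twist2Cre, a Cre recombinase driven by a gene of mesenchymal cells, and the Rosa26mT/mG reporter, which switches a cell and its descendants to green fluorescence. Lungs of 1 genotype were pooled, and cells that had lost tdTomato and gained GFP were sorted, giving 4 dexamethasone pools and 2 saline pools. In the second, E18.5 lung cells were split on CD106, the adhesion molecule encoded by Vcam1, giving 2 CD106+ and 2 CD106- libraries without a stated treatment, beside 1 CD106+ library labelled 1 mg/kg dexamethasone. No genotype, strain or time after injection is given for these 5 libraries, and depletion of CD45, CD31 and CD309 cells before CD106 selection is described for accessibility samples only, which were not analysed here. In the third, wild type C57Bl6/J dams were injected at E17.5 and single lung cells were profiled on the C1 platform 24 h later, with 15 cells after 2 mg/kg dexamethasone and 11 after saline. The labels name no animals, so that p-values measure the spread between libraries, which may be technical.

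These families are guidance systems first described in growing axons and also used by mesenchyme, epithelium and vessels. Semaphorins signal through plexins, the secreted class 3 members mostly with a neuropilin as coreceptor, Slits signal through Robos, and ephrins on one cell bind Eph receptor kinases on the next, with signals passing into both cells. The A ephrins are held by a lipid anchor and the B ephrins span the membrane. In the lung, Slits and Robos are known from the mesenchyme, ephrin B2 from arterial endothelium, and class 3 semaphorins from branching airways and vessels.

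Total counts were 1670896 to 4224245 in mesenchyme pools, 4987175 to 7133941 in the CD106+ and CD106- libraries, 3790544 in the CD106+ dexamethasone library and 215623 to 1787997 in single cells. Levels are CPM, counts scaled to a library total of 1000000. Since CPM does not correct for gene length, levels are compared between samples and not between genes. Vcam1 stood at 551 and 687 CPM in CD106+ libraries and at 1.35 and 3.00 CPM in CD106- libraries. The glucocorticoid target Fkbp5 stood at 260.2, 176, 187 and 178 CPM in dexamethasone mesenchyme pools and at 28.7 and 40.7 CPM in saline pools. The pools also differed in sex: the female transcript Xist was at 374, 11111, 12.6 and 6.59 CPM in dexamethasone pools and at 33133 and 20879.6 CPM in saline pools, while in the CD106+ and CD106- fractions its ranges overlapped. Of the 58 members, 28 overlap another annotated gene and 3 (Efnb1, Plxna3 and Plxnb3) lie on X, and without knowledge of how reads were assigned or whether strand was used, overlapping genes cannot be told apart.

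Of the 58 members, 44 reached 10 CPM in at least 1 bulk library. The other 14 were Sema3g, Sema4a, Sema6b, Sema6c, Plxnb3, Slit1, Robo3, Efna2, Efna3, Epha6, Epha8, Epha10, Ephb1 and Ephb6. Slit1 had no count in any of the 11 bulk libraries, which allows a level of up to 0.0693 CPM over them together, and Epha8 and Epha6 had at most 1 and 2 counts in a library. The ligands Slit2 and Slit3, their receptors Robo1 and Robo2, and Epha3 had lower levels in CD106- libraries than in the other 9 bulk libraries. Slit2 ranged from 429 to 1114 CPM in those 9 and stood at 149 and 197 CPM in CD106- cells. Other members were high in both CD106 fractions and low in sorted mesenchyme. The transmembrane semaphorin Sema4f was at 105 and 79.1 CPM in CD106+ libraries and at 195 and 199 CPM in CD106- libraries, whereas 4 of the 6 mesenchyme pools had no count and the highest had 7.81 CPM. Sema3e, a secreted semaphorin that binds Plxnd1 without a neuropilin, was at 79.2 to 254 CPM in the fractions and at 4.73 to 12.0 CPM in mesenchyme pools. These levels come from separately sorted and separately deposited tables, and the difference between tables was not tested. The summed level of 10 epithelial markers was 2590 to 6081 CPM in the CD106+ and CD106- fractions and 5.44 to 264 CPM in mesenchyme pools, and its part in these levels was not tested.

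**Figure D1:**
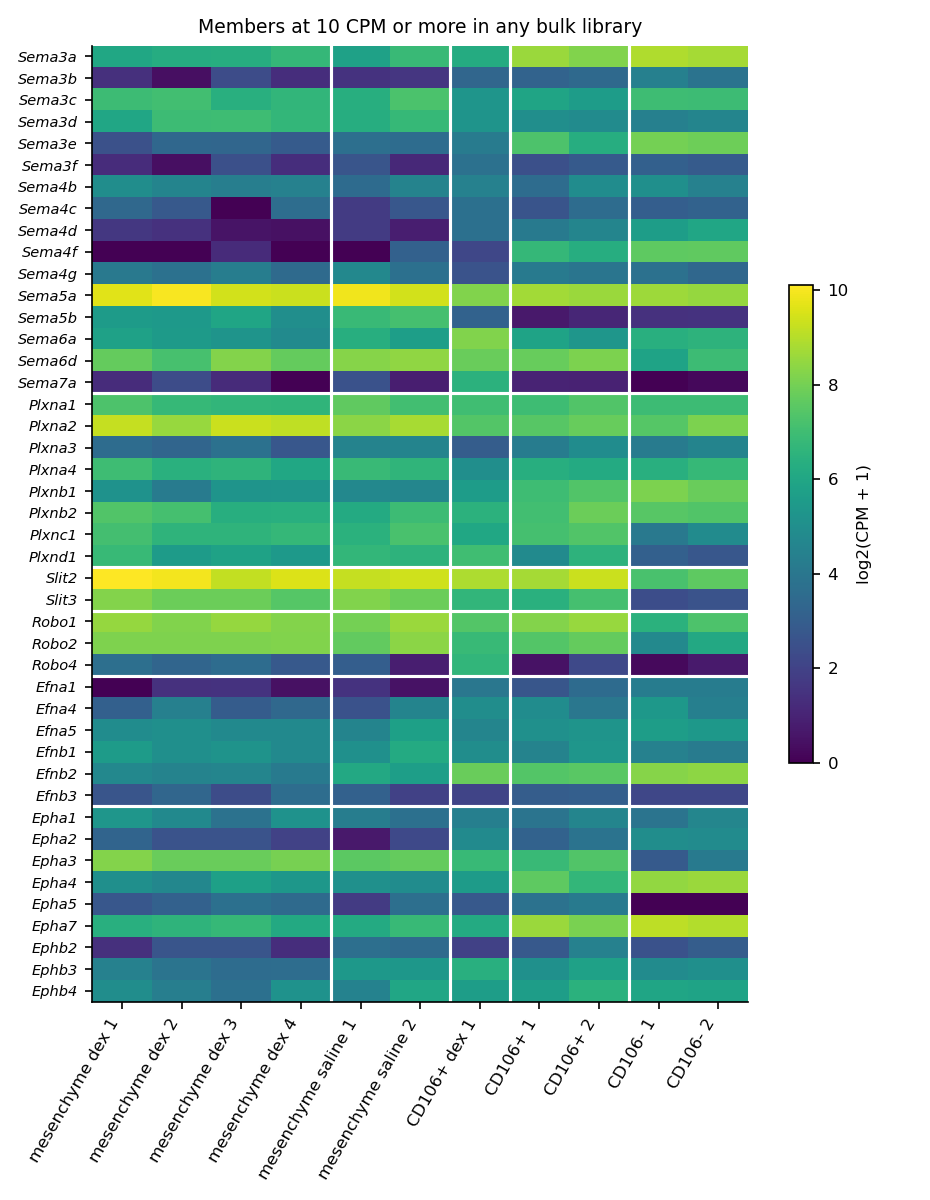
Heat map of log2(CPM + 1) for the 44 members that reached 10 CPM in a bulk library (rows, by family) in the 11 bulk libraries (columns; dex, dexamethasone). Slit3, Epha3 and Epha5 are dark in both CD106- columns, and Sema4f and Sema3e are dark in the mesenchyme columns.

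The first question was which of these genes responded within 2 h of dexamethasone in Twist2Cre-labelled mesenchyme. Few passed: of 42 members tested, 2 fell, 0 rose and 40 did not pass at an edgeR adjusted p of 0.05. With 2 saline pools, failing to pass does not show that a gene did not respond. Over all 11356 genes tested, 2.69% changed, 1.95% upwards and 0.74% downwards. The members' share of 2 in 42 lay near the 2.69% for both directions together. Both members fell, and for that direction alone the share over all genes was 0.74%. Whether 2 in 42 differs from these shares was not tested. No member rose by DESeq2 or limma-voom either, and 1 member had an unadjusted p under 0.05 upwards and 6 downwards. Over all genes tested, 13.8% had an unadjusted p under 0.05 in either direction, near the share of these 7 of 42 members. The shares upwards and downwards are not given here. The median log2 fold change was -0.03 over the 42 members and -0.01 over all genes tested.

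Sema5b, a transmembrane semaphorin with thrombospondin repeats, was 1 of the 2 that fell. Its levels were 46.4, 43.5, 61.7 and 30.9 CPM in dexamethasone pools and 116 and 139 CPM in saline pools. All 4 dexamethasone pools lay below both saline pools, with a mean of 45.6 ± 12.6 CPM against 127 ± 16.9 CPM (SD, n = 4 and 2). The log2 fold change was -1.42 (SE 0.28, edgeR adjusted p = 0.0096), a level 2.68-fold lower under dexamethasone. Without saline pool 2 the adjusted p was 0.081.

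Efnb2 encodes ephrin B2, the transmembrane ligand of Ephb4 and other B receptors. It stood at 25.3, 21.8, 23.4 and 16.6 CPM in dexamethasone pools and at 67.6 and 50.6 CPM in saline pools. Again the groups did not overlap, with means of 21.8 ± 3.75 CPM and 59.1 ± 12.0 CPM (SD, n = 4 and 2; log2 fold change -1.38, SE 0.34, edgeR adjusted p = 0.037). This call was lost when any 1 of the 6 pools was left out, with edgeR adjusted p between 0.055 and 0.31, the highest without saline pool 1. Leaving out a saline pool makes the spread rest on dexamethasone pools alone.

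Of the members that did not pass, Ephb3, a receptor of B ephrins, had the smallest p. It stood at 21.1, 13.9, 10.8 and 11.3 CPM in dexamethasone pools and at 40.7 and 40.3 CPM in saline pools, with no overlap (log2 fold change -1.43, SE 0.40, edgeR adjusted p = 0.065). It passed by DESeq2 (adjusted p = 0.036) and by edgeR without a filter on low counts (adjusted p = 0.042). The related receptor Ephb2 stood at 1.66, 5.44, 5.404 and 1.51 CPM in dexamethasone pools against 12.0 and 10.3 CPM in saline pools (log2 fold change -1.62, SE 0.75, edgeR adjusted p = 0.35). For both receptors every dexamethasone pool lay below every saline pool. In mesenchyme too, lack of overlap adds no support to the test, since these members are named by small p. The share of all genes tested whose pools do not overlap is not given here.

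Among the plexins, Plxna3, a receptor of class 3 semaphorins on X, stood at 10.9, 8.84, 12.6 and 5.66 CPM in dexamethasone pools against 22.1 and 22.6 CPM in saline pools (log2 fold change -1.17, SE 0.47, edgeR adjusted p = 0.25). Plxna2, which binds class 6 semaphorins, stood at 603, 381, 632 and 573 CPM in dexamethasone pools against 330.4 and 440.5 CPM in saline pools (log2 fold change 0.57, SE 0.24, edgeR adjusted p = 0.27). The Plxna2 groups overlapped through dexamethasone pool 2, and the Plxna3 groups did not overlap. Sema6d, a transmembrane ligand of Plxna1, stood at 211, 145, 299.9 and 214 CPM in dexamethasone pools against 312 and 347 CPM in saline pools (log2 fold change -0.54, SE 0.25, edgeR adjusted p = 0.35). Its groups came close without overlapping. The receptor gene Epha1, whose locus overlaps Zyx, stood at 38.8, 26.9, 13.1 and 35.1 CPM in dexamethasone pools against 18.6 and 12.3 CPM in saline pools (log2 fold change 0.96, SE 0.48, edgeR adjusted p = 0.40). Its groups overlapped through dexamethasone pool 3.

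**Figure D2:**
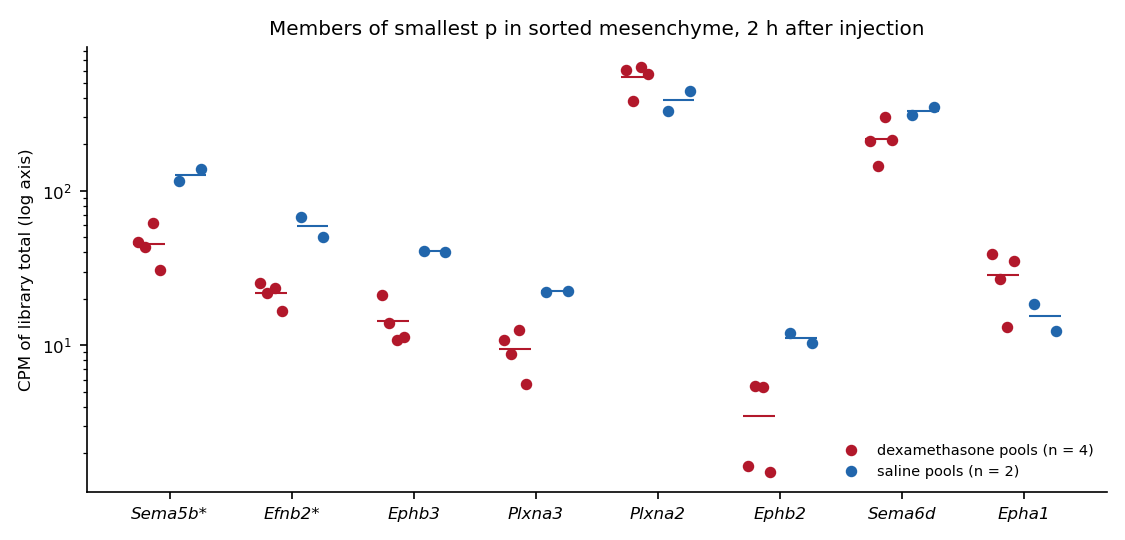
CPM of library total (log axis) in each sorted mesenchyme pool for the 8 members of smallest p, dexamethasone pools (red, n = 4) left of saline pools (blue, n = 2), with group means as lines. Asterisks mark Sema5b and Efnb2, which passed, and their dexamethasone pools (16.6 to 61.7 CPM over the pair) each lie below the saline pools of the same gene.

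By family, 1 of 13 tested semaphorins fell, 1 of 5 ephrins fell, and none of 8 plexins, 2 Slits, 3 Robos and 11 Eph receptors passed by edgeR. Slit2, the ligand of Robo1 and Robo2, stood at 1114, 973, 580.0 and 771 CPM in dexamethasone pools and at 606 and 673 CPM in saline pools, which overlapped. Robo1 at 365, 298, 370.2 and 303 CPM in dexamethasone pools spanned a narrower range than in saline pools, at 254 and 389 CPM, and lay within it. Robo2 did likewise, at 283, 286, 287 and 292 CPM in dexamethasone pools against 203 and 327 CPM in saline pools. The receptor gene Epha3 stood at 299, 225, 224 and 264 CPM in dexamethasone pools, each above the saline pools at 188 and 209.8 CPM, without passing the test.

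Other features of the pools moved with treatment. The summed level of 10 chondrocyte markers was 14.9 to 402 CPM in dexamethasone pools and 641 to 1582 CPM in saline pools, with all 10 detected in both groups and 0 of 8 tested past the threshold by edgeR. That of 8 smooth muscle markers was 1160 to 1239 CPM in dexamethasone pools and 1789 to 2177 CPM in saline pools, and 0 of 8 passed by edgeR. Of each of these lists 4 genes had an unadjusted p under 0.05. The 8 cardiac muscle markers summed to 213 to 508 CPM in dexamethasone pools against 509 to 825 CPM in saline pools, where Nppa was at 0. Of the 10 matrix fibroblast markers, which summed to 17345 to 20603 CPM in dexamethasone pools against 15119 to 20331 CPM in saline pools, 1 passed: Meox2, a homeobox gene, was at 63.4 ± 12.2 CPM in dexamethasone pools and 186 ± 50.1 CPM in saline pools (SD, n = 4 and 2; edgeR adjusted p = 0.0027). The 10 endothelial markers summed to 57.6 to 166 CPM in dexamethasone pools and to 57.2 to 136 CPM in saline pools, with Cldn5 at 0 in all 6. With Xist as a covariate, 0 members passed, and Sema5b had a log2 fold change of -1.45 (edgeR adjusted p = 0.12) and Efnb2 of -1.21 (edgeR adjusted p = 0.34). With the chondrocyte marker level as a covariate the values were -1.15 and -1.39 (edgeR adjusted p = 0.65 and 0.72). In bulk samples fewer cells of a type and less RNA per cell cannot be told apart. The Y-linked transcript Ddx3y was at 106, 74.4, 131 and 174 CPM in dexamethasone pools against 1.20 and 0 CPM in saline pools, so that treatment and the sex make-up of the pools cannot be told apart.

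The promoters of both genes that fell are shown because glucocorticoid response elements are commonly looked for there. They are the RefSeq windows (GRCm38.p6) of 300 bases around an annotated start, 5′ to 3′ on the gene's strand, with the first transcribed base in capitals. Sema5b lies at chr16:35541112-35541411 on the plus strand and Efnb2 at chr8:8661193-8661492 on the minus strand.
Sema5b: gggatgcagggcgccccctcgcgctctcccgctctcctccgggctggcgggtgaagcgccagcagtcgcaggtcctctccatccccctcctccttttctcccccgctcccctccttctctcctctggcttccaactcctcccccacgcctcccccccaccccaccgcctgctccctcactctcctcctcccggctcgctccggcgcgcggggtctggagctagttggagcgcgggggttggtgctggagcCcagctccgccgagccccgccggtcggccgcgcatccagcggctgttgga
Efnb2: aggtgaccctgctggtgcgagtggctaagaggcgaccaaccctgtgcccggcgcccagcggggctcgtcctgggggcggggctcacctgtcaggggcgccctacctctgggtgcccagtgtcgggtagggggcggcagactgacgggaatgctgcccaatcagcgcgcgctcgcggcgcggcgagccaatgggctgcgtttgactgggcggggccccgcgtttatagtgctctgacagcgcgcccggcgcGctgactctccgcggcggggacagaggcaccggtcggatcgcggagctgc
Their GC content was 73.0% and 72.3%, against a median of 52.7% over 32851 windows in the table and 64.0% over 67 windows of 51 members. The palindromic glucocorticoid response element, AGAACA and TGTTCT with 3 bases between them, searched on both strands, was found in neither window, in none of the 67 and in 3 of all windows. The single arm AGAACA, also contained in that palindrome, was found in neither window, in 8 of the 67 (11.9%) and in 19.0% of all windows. A repressive element, CTCC and GGAGA separated by at most 2 bases on either strand, was found in 2 of the 67 (2.99%), at Plxnd1 and Plxnc1, and in 1.72% of all windows. Absence of these letters covers these windows alone.

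The second question was which of these genes distinguished CD106+ from CD106- cells. Of 44 members tested, 16 changed at an edgeR adjusted p of 0.05, 9 higher and 7 lower in CD106+ cells. Over all 12364 genes tested 9.9% changed, 6.69% higher and 3.21% lower. Both tested Slits and both tested Robos were higher, as were 2 of 8 plexins, 2 of 10 Eph receptors and 1 of 15 semaphorins, while 4 semaphorins, 2 Eph receptors and 1 of 7 ephrins were lower. The median log2 fold change was 0.05 over the members and 0.06 over all genes tested.

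Slit3 showed the smallest p of the members. It stood at 84.2 and 141 CPM in CD106+ libraries and at 4.23 and 4.99 CPM in CD106- libraries (log2 fold change 4.55, SE 0.37, edgeR adjusted p = 4.9e-09), a 23.5-fold difference. Slit2 stood at 429 and 641 CPM in CD106+ libraries and at 149 and 197 CPM in CD106- libraries (log2 fold change 1.58, SE 0.30, edgeR adjusted p = 7.7e-04). Their receptors went the same way. Robo1 stood at 300.4 and 378 CPM in CD106+ libraries against 87.7 and 154 CPM in CD106- libraries (log2 fold change 1.44, SE 0.30, edgeR adjusted p = 0.0021). Robo2 stood at 171 and 213 CPM in CD106+ libraries against 25.97 and 68.1 CPM in CD106- libraries (log2 fold change 1.98, SE 0.37, edgeR adjusted p = 0.0020). In none of the 4 did the fractions overlap. Here and below, lack of overlap adds no support to the test, since members are named by small p and each fraction has 2 libraries. The share of all genes without overlap is not given here. Robo4, the vascular Robo, was too low to test, at 0.401 and 3.64 CPM in CD106+ libraries and 0.192 and 0.666 CPM in CD106- libraries.

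Slit2 and Slit3 each carry a copy of the microRNA gene Mir218 within their locus, Mir218-1 at chr5:48223966-48223986 and Mir218-2 at chr11:35616840-35616860 (positions of the 5p arm, plus strand). The mature sequences, from RefSeq (GRCm38.p6), are shown because the 5p arm is the same from both host genes and the 3p arms are not. Capitals mark the seed.
mmu-miR-218-5p: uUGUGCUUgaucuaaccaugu
mmu-miR-218-1-3p: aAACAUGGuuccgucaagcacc
mmu-miR-218-2-3p: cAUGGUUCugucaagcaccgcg
The tables list both Mir218 genes at 0 counts in all 11 bulk libraries, so that no level of the microRNA can be given beside those of Slit2 and Slit3.

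Of the plexins, Plxnc1, the receptor of Sema7a, stood at 141 and 165 CPM in CD106+ libraries and at 16.2 and 28.5 CPM in CD106- libraries (log2 fold change 2.73, SE 0.31, edgeR adjusted p = 1.4e-06). Plxnd1, the receptor of Sema3e, stood at 27.5 and 92.5 CPM in CD106+ libraries and at 7.69 and 5.66 CPM in CD106- libraries (log2 fold change 3.11, SE 0.48, edgeR adjusted p = 2.3e-04). The CD106+ libraries differed more than 3-fold among themselves for Plxnd1, and both still lay above the CD106- libraries. Plxnb1, the receptor of Sema4d, ran the other way, at 126 and 167 CPM in CD106+ libraries against 279 and 225 CPM in CD106- libraries, without passing (log2 fold change -0.82, SE 0.27, edgeR adjusted p = 0.056). It passed by DESeq2 (adjusted p = 0.027), with upper quartile scaling in edgeR (adjusted p = 0.034) and without a filter (adjusted p = 0.044), and in edgeR without CD106+ library 1 or 2 (adjusted p = 0.014 and 0.0024).

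The Eph receptors split. Epha3, a receptor of A ephrins, stood at 115 and 166 CPM in CD106+ libraries and at 6.35 and 17.1 CPM in CD106- libraries (log2 fold change 3.51, SE 0.39, edgeR adjusted p = 7.9e-06). Epha5, a close relative of Epha3, stood at 13.0 and 16.96 CPM in CD106+ libraries and had no count in either CD106- library (edgeR adjusted p = 5.2e-06). Set against 3 counts over the CD106- libraries, the level that no count allows, Epha5 was at least 57.3-fold higher. Epha4, which binds ephrins of both classes, stood at 195 and 102 CPM in CD106+ libraries against 357 and 389.5 CPM in CD106- libraries (log2 fold change -1.34, SE 0.32, edgeR adjusted p = 0.0085). Epha2, a receptor of Efna1, stood at 8.02 and 13.5 CPM in CD106+ libraries against 30.4 and 28.8 CPM in CD106- libraries (log2 fold change -1.50, SE 0.41, edgeR adjusted p = 0.019). Each of the 4 separated the fractions without overlap.

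Epha7 and Ephb2 did not pass. Epha7 stood at 387 and 274 CPM in CD106+ libraries against 557 and 502 CPM in CD106- libraries (log2 fold change -0.69, SE 0.30, edgeR adjusted p = 0.19). Ephb2 stood at 6.02 and 20.9 CPM in CD106+ libraries against 4.81 and 6.99 CPM in CD106- libraries (log2 fold change 1.12, SE 0.58, edgeR adjusted p = 0.30). Only Ephb2 overlapped between the fractions, through CD106+ library 1. When that library was left out, Ephb2 and Epha7 passed (edgeR adjusted p = 0.0099 and 3.0e-05).

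Efnb2, the ligand that fell in mesenchyme, was lower in CD106+ cells, at 169.6 and 186 CPM against 308 and 337 CPM in CD106- libraries (log2 fold change -0.89, SE 0.27, edgeR adjusted p = 0.035). The ligand Efna1 stood at 5.61 and 10.7 CPM in CD106+ libraries against 18.3 and 17.8 CPM in CD106- libraries (log2 fold change -1.19, SE 0.48, edgeR adjusted p = 0.14), and passed without CD106+ library 2 (edgeR adjusted p = 0.025). Neither ephrin overlapped between fractions. The remaining tested ephrins, Efna2, Efna4, Efna5, Efnb1 and Efnb3, did not pass.

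The 4 semaphorins that were lower in CD106+ cells were 2 secreted and 2 transmembrane ligands. Sema3c, a secreted ligand that uses neuropilins, stood at 59.6 and 47.8 CPM in CD106+ libraries against 124 and 123 CPM in CD106- libraries (log2 fold change -1.22, SE 0.28, edgeR adjusted p = 0.0044). Sema3e stood at 154 and 79.2 CPM in CD106+ libraries against 254 and 234 CPM in CD106- libraries (log2 fold change -1.07, SE 0.32, edgeR adjusted p = 0.033). The ligand Sema3e was thus lower and its receptor Plxnd1 higher in CD106+ cells. Sema4d, the ligand of Plxnb1, stood at 16.6 and 23.4 CPM in CD106+ libraries against 48.1 and 62.1 CPM in CD106- libraries (log2 fold change -1.50, SE 0.34, edgeR adjusted p = 0.0041). Sema4f stood at 105 and 79.1 CPM in CD106+ libraries against 195 and 199 CPM in CD106- libraries (log2 fold change -1.12, SE 0.28, edgeR adjusted p = 0.0085). None of the 4 overlapped.

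Sema6d was the semaphorin that was higher, at 216 and 279 CPM in CD106+ libraries against 56.9 and 123 CPM in CD106- libraries (log2 fold change 1.41, SE 0.32, edgeR adjusted p = 0.0063). Its relative Sema6a stood at 57.9 and 38.7 CPM in CD106+ libraries against 83.7 and 91.6 CPM in CD106- libraries (log2 fold change -0.88, SE 0.30, edgeR adjusted p = 0.066), and the secreted Sema3b at 8.22 and 9.95 CPM against 20.0 and 13.6 CPM (log2 fold change -0.92, SE 0.47, edgeR adjusted p = 0.30). Both fractions were apart for each of the 3. Sema6a passed without a filter (edgeR adjusted p = 0.036), with upper quartile scaling (edgeR adjusted p = 0.048) and by limma-voom (adjusted p = 0.048), and in edgeR without CD106+ library 1 (adjusted p = 1.0e-04).

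**Figure D3:**
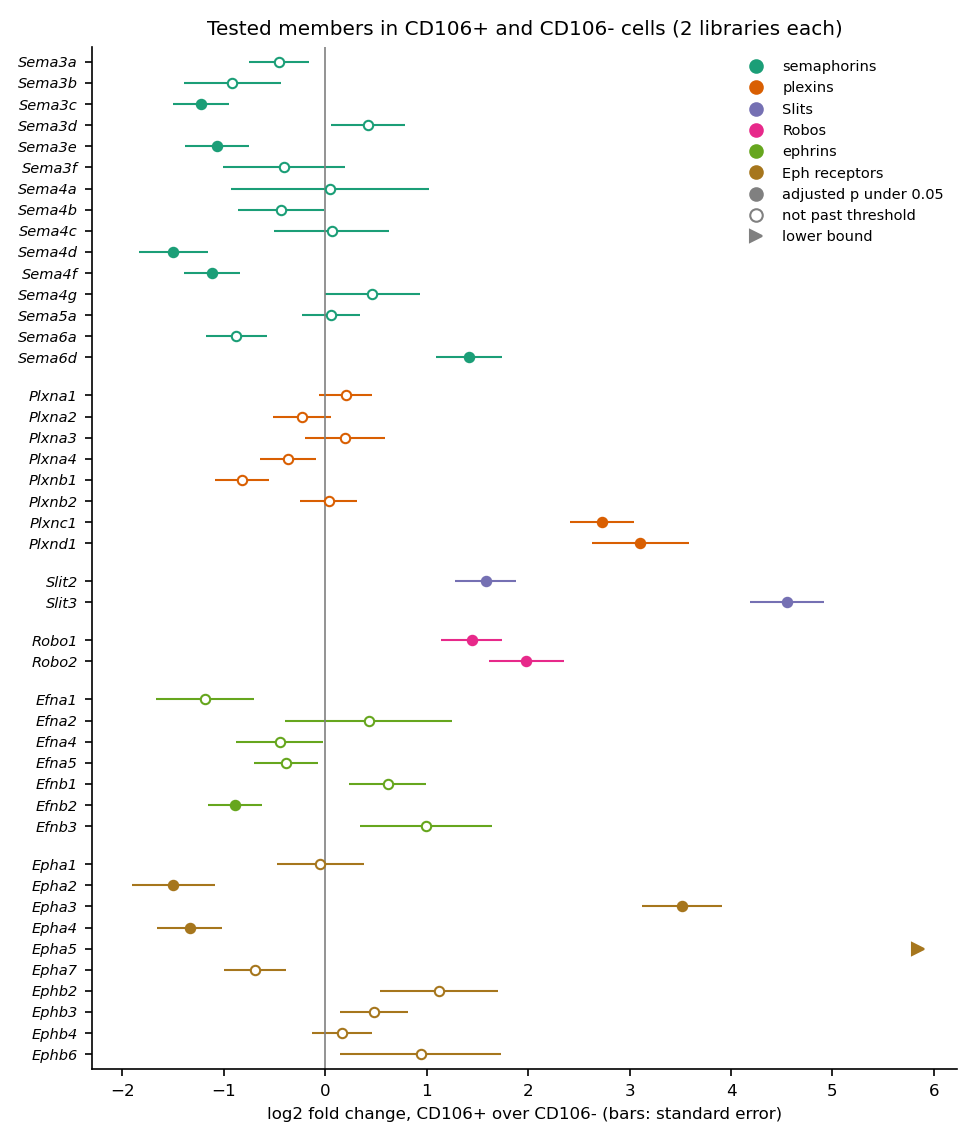
Log2 fold change of CD106+ over CD106- cells with its standard error for the 44 tested members, by family, filled where the edgeR adjusted p was under 0.05. The triangle for Epha5 is the lower bound of 57.3-fold, since CD106- libraries had no count; the tested Slits and Robos lie right of 0, with Slit3 at 4.55.

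With 2 libraries per fraction, single libraries decided many of these calls. Without CD106- library 1, 7 of the 16 calls were kept and Slit2, Robo2, Robo1, Sema3c, Sema6d, Sema4f, Epha2, Sema3e and Efnb2 were lost, with edgeR adjusted p of 0.057 to 0.42. Without CD106- library 2, 9 were kept, and Sema4d, Sema3c, Epha4, Sema4f, Epha2, Sema3e and Efnb2 were lost (edgeR adjusted p of 0.081 to 0.50). Without CD106+ library 2 only Sema3e was lost (edgeR adjusted p = 0.090), and without CD106+ library 1 none was lost and 22 members passed. Slit3, Plxnc1, Epha5, Epha3 and Plxnd1 passed in all 4 of these fits, each of which holds 1 fraction as a single library assumed to vary like the other fraction. All 16 kept their direction in them, but several fold changes moved by 1.5 times or more. Epha3 had a log2 fold change of 2.92 without CD106- library 1 and 4.44 without CD106- library 2. Without CD106- library 2, Robo2 stood at 2.87 and Sema6d at 2.10 on the same scale. Plxnd1 stood at 2.08 without CD106+ library 2, and Epha4 and Sema3e at -1.98 and -1.74 without CD106+ library 1.

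The fractions also differed in cell type markers. The 10 epithelial markers summed to 2590 and 4239 CPM in CD106+ libraries and to 5438 to 6081 CPM in CD106- libraries, all 10 being detected in both, and 5 were lower in CD106+ cells: Epcam, Cdh1, Nkx2-1, Sftpb and Cldn18. The 10 matrix fibroblast markers summed to 6209 and 11433 CPM in CD106+ libraries against 905 to 1275 CPM in CD106- libraries, and 9 were higher. The 10 endothelial markers summed to 114 to 134 CPM in CD106+ libraries against 15.5 to 23.1 CPM in CD106- libraries, where Tie1 and Cldn5 were at 0, and 6 of 9 tested were higher. The 9 mesothelial markers summed to 69.6 to 123 CPM in CD106+ libraries against 228 to 262 CPM in CD106- libraries, and 4 were lower. The 8 pericyte markers summed to 363 to 470.4 CPM in CD106+ libraries against 168 to 199.9 CPM in CD106- libraries, and 3 were higher. The 10 chondrocyte markers summed to 120.4 to 128 CPM in CD106+ libraries against 257 to 277 CPM in CD106- libraries, with Acan and Matn1 at 0 in both, and 2 of 7 tested were lower. The 8 cardiac muscle markers summed to 4163 and 120.2 CPM in CD106+ libraries 1 and 2 against 61.7 to 162 CPM in CD106- libraries. All 8 had a positive log2 fold change, and 1, Myl7, passed by edgeR. The 8 smooth muscle markers summed to 319 and 691 CPM in CD106+ libraries against 140 to 298 CPM in CD106- libraries. Of these, 7 had a positive log2 fold change, and 1, Des, passed by edgeR. The part of these cell types in the members' differences was not tested.

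Genes that act with these families were counted from 4 lists of 90 genes. In mesenchyme 2 of 75 tested rose under dexamethasone, 0 fell by edgeR and 73 did not pass, against 1.95% higher and 0.74% lower over all genes tested. An unadjusted p under 0.05 was found for 11 of the 75, against 13.8% of all genes tested, so that both counts lay near the background. The heparan sulphate proteoglycan gene Sdc4, whose class of proteins binds Slits, stood at 142 ± 34.1 CPM in dexamethasone pools against 38.6 ± 29.2 CPM in saline pools (SD, n = 4 and 2; log2 fold change 1.95, edgeR adjusted p = 0.013). Sipa1l1, a Rap GTPase-activating protein that binds Epha4, stood at 332 ± 8.18 CPM in dexamethasone pools against 149.9 ± 19.0 CPM in saline pools (SD, n = 4 and 2; log2 fold change 1.21, edgeR adjusted p = 0.0045).

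In the CD106 comparison 14 of 80 partner genes tested were higher and 5 lower, against 6.69% higher and 3.21% lower over all genes tested. Of 11 netrin and repulsive guidance genes tested, 5 were higher and 0 lower by edgeR, with 6 at an unadjusted p under 0.05 in either direction. Unc5c, a repulsive netrin receptor, stood at 624 ± 90.8 CPM in CD106+ libraries and at 8.90 ± 5.78 CPM in CD106- libraries (SD, n = 2 each; log2 fold change 6.07, edgeR adjusted p = 4.3e-09). Also higher were its relative Unc5a, the anchored netrin Ntng1 and the netrin and RGM receptor Neo1, by 3.28, 3.99 and 1.05 on the log2 scale (edgeR adjusted p = 0.025, 6.0e-04 and 0.024). Of 22 semaphorin and plexin partners tested, 4 were higher and 3 lower. Plxdc2, a transmembrane protein with a plexin-like domain, stood at 406 ± 43.0 CPM in CD106+ libraries against 71.9 ± 1.15 CPM in CD106- libraries (SD, n = 2 each; log2 fold change 2.46, edgeR adjusted p = 1.2e-06).

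The actin oxidase gene Mical3 was higher by 2.19 on the log2 scale, Dpysl3, a collapsin response mediator, by 1.76, and Rras, a small GTPase inactivated by plexins, by 2.27 (edgeR adjusted p = 1.4e-05, 0.0066 and 0.030). Lower were Mical2, L1cam, part of the Sema3a receptor complex, and Met, a receptor kinase that associates with Plxnb1, with log2 fold changes of -1.12, -1.47 and -0.995 (edgeR adjusted p = 0.012, 0.0057 and 0.019). Of 22 ephrin partners, 4 were higher and 0 lower by edgeR. These were Kalrn and Arhgef15, guanine nucleotide exchange factors, and the chimaerins Chn1 and Chn2, Rac GTPase-activating proteins (which inactivate Rac) downstream of Epha4. Their log2 fold changes were 1.25, 5.57, 0.99 and 3.15 in that order (edgeR adjusted p = 0.013, 0.0023, 0.038 and 0.0099). Of 25 Slit and Robo partners Sdc2 was higher (log2 fold change 1.62) and Sdc4 and Flrt3 lower (-1.001 and -0.96; edgeR adjusted p = 3.0e-04, 0.042 and 0.031).

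A single CD106+ library from dexamethasone-treated lungs was set beside the 2 CD106+ libraries, which also enter the comparison with CD106- cells. With 1 treated library there is no test, and the treated library comes from a separate table. By a rule of 2-fold or more on log2(CPM + 1), and outside both CD106+ libraries, 11 members were higher and 14 lower of 56 with a count. The same rule took 27.6% of 17310 genes with a count, 13.7% higher and 13.9% lower.

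The members highest relative to the CD106+ libraries were Sema7a, a lipid-anchored semaphorin that binds Plxnc1 and integrins, and Robo4. Sema7a stood at 90.8 CPM in the dexamethasone library and at 1.00 and 0.981 CPM in CD106+ libraries, a log2 ratio of 5.53. Robo4 stood at 101 CPM in the dexamethasone library against 0.401 and 3.64 CPM in CD106+ libraries, a log2 ratio of 5.32. Both values rest on ample counts in the treated library, 344 for Sema7a and 382 for Robo4, and on few in the others, 12 and 28 in all. Sema6a stood at 296 CPM in the dexamethasone library against 57.9 and 38.7 CPM (log2 ratio 2.62), and Plxnd1 at 129 CPM against 27.5 and 92.5 CPM (log2 ratio 1.34). Epha2 stood at 27.4 CPM in the dexamethasone library against 8.02 and 13.5 CPM (log2 ratio 1.32), and the secreted Sema3f at 12.7 CPM against 4.61 and 6.31 CPM (log2 ratio 1.09). Ephb3 and Efna1, short of 2-fold, stood at 82.3 and 15.3 CPM in the dexamethasone library, against 32.9 and 53.8 CPM for Ephb3 and 5.61 and 10.7 CPM for Efna1.

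On the low side, Sema4f stood at 3.43 CPM in the dexamethasone library against 105 and 79.1 CPM in CD106+ libraries, a log2 ratio of -4.38 resting on 13 counts. Sema3e stood at 17.4 CPM in the dexamethasone library against 154 and 79.2 CPM (log2 ratio -2.60), and Sema3a, a secreted ligand that uses neuropilin 1, at 73.3 CPM against 384 and 294 CPM (log2 ratio -2.18). In sorted mesenchyme Sema3a ranged from 54.5 to 116 CPM, so that the dexamethasone library lay within the mesenchyme range. Epha7 stood at 72.3 CPM in the dexamethasone library against 387 and 274 CPM (log2 ratio -2.16), and Epha4 at 46.2 CPM against 195 and 102 CPM (log2 ratio -1.59). Plxnb1 stood at 46.7 CPM in the dexamethasone library against 126 and 167 CPM (log2 ratio -1.61), Plxna3 at 6.86 CPM against 18.2 and 29.6 CPM (log2 ratio -1.63), and Ephb2 at 2.90 CPM against 6.02 and 20.9 CPM (log2 ratio -1.67). In each of these the treated library lay below both others, as the rule requires.

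Slit2 at 466 CPM in the dexamethasone library lay between the CD106+ libraries, at 429 and 641 CPM. Slit3, at 102 CPM, lay between 84.2 and 141 CPM, and Sema6d, at 225 CPM, between 216 and 279 CPM. Robo1 and Robo2, at 169.9 and 113 CPM in the dexamethasone library, lay below the CD106+ libraries, at 300.4 and 378 CPM for Robo1 and 171 and 213 CPM for Robo2. Their log2 ratios were -0.98 and -0.76, short of the 2-fold rule.

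**Figure D4:**
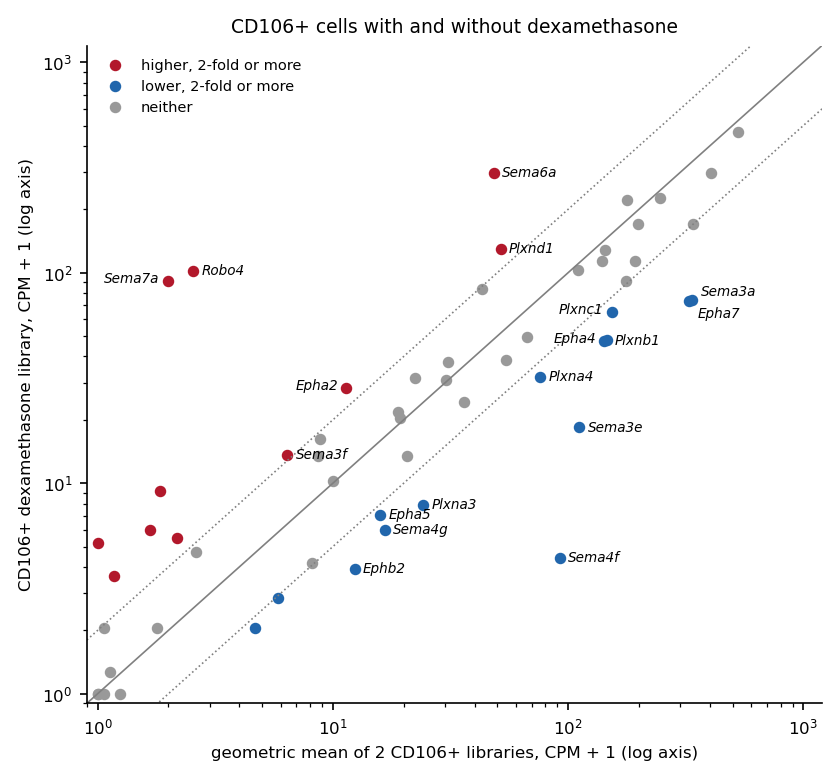
CPM + 1 of each member in the CD106+ dexamethasone library (vertical, log axis) against the geometric mean of the 2 CD106+ libraries (horizontal, log axis), with the line of equality and dotted lines at 2-fold. Sema7a and Robo4 lie far above the line at 90.8 and 101 CPM, and Sema4f far below it at 3.43 CPM; names are given for marked members at 10 CPM or more on either axis.

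All 10 endothelial markers were 2-fold or more higher in the dexamethasone library, where they summed to 2472 CPM against 134 and 114 CPM in CD106+ libraries, and none was at 0. Pecam1, the endothelial adhesion molecule CD31, was at 508 CPM against 22.1 and 16.54 CPM. The 10 epithelial markers summed to 1620.9 CPM in the dexamethasone library against 2590 and 4239 CPM in CD106+ libraries, 5 of them lower and 1 higher. The 10 immune markers summed to 114 CPM in the dexamethasone library against 7.82 and 18.8 CPM, with 6 higher and Cd52 and C1qb at 0 in the treated library. Of the 6 glucocorticoid check genes 4 were higher and 0 lower, with sums of 2206 CPM in the dexamethasone library against 775 and 847 CPM. The part of these cell types in the members' ratios was not tested.

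In single cells 24 h after injection, 40 members had a count in some cell. The labels name no animals, so the 15 dexamethasone and 11 saline cells are 1 sample each and there is no test. Counts were summed over the cells of a group, and intervals are exact Poisson intervals at 95% that cover counting error only. By 2-fold or more with intervals apart, 8 members were higher and 18 lower, against 59% of 12689 genes with a count (25.7% higher and 33.3% lower). Dexamethasone cells had fewer counts, with a median total of 852850 against 1349760 in saline cells. The median number of members with a count was 10 in dexamethasone cells and 16 in saline cells. Of 5 sex-linked transcripts, 3 were higher and 0 lower in the dexamethasone sum. The cells also differed in type: Pecam1 exceeded 100 CPM in 1 of 15 dexamethasone cells and 5 of 11 saline cells, and all 10 endothelial and all 8 smooth muscle markers were lower in the dexamethasone sum, as were 7 of 10 immune markers. Of 10 matrix fibroblast markers, 6 were higher and 1 lower, and 4 of 8 epithelial and 3 of 4 mesothelial markers with a count were higher. Of the 6 glucocorticoid check genes 1 was higher and 2 lower, with Fkbp5 at 53.6 CPM over dexamethasone cells against 139 CPM over saline cells and Tsc22d3 at 166 CPM against 746 CPM. The summed level of the 6 had a median of 246 CPM in dexamethasone cells and 1173 CPM in saline cells. Epcam was at 0 in all 26 cells.

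The ligand Slit2 reached 10 CPM in more cells than any other member, 21 of 26. It reached 10 CPM in 14 of 15 dexamethasone cells, with a median of 407 and a highest value of 2907 CPM, and in 7 of 11 saline cells, with a median of 48.7 and a highest value of 1262 CPM. The summed level was 745 CPM (730.3 to 759.9) in dexamethasone cells and 238 CPM (231 to 246) in saline cells. Its receptor Robo2 reached 10 CPM in 13 of 15 dexamethasone cells and 4 of 11 saline cells, at summed levels of 292 CPM (283 to 301) and 175 CPM (168 to 181). The log2 ratio was 1.64 for Slit2 and 0.74 for Robo2, and without the 6 cells of high Pecam1 it was 2.74 and 1.01. The cells left still differed in type. Saline cells 2, 4 and 11 had the matrix fibroblast marker Col1a1 at 1.31, 0 and 31.1 CPM. They had no count of Slit2, and Robo2 at 3.27, 0 and 0 CPM. Col1a1 ranged from 162 to 4453 CPM in the dexamethasone cells left. The part of cell type in these ratios was not tested. Cells of both groups ranged from 0 CPM upwards for Robo2.

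Robo1 stood at 143 CPM (137 to 149.97) over dexamethasone cells and 37.2 CPM (34.2 to 40.5) over saline cells. Ephb3 stood at 142 CPM (135 to 148) over dexamethasone cells and 2.56 CPM (1.81 to 3.51) over saline cells. In both, 1 cell held most of the dexamethasone counts, 64.2% for Robo1 and 80.8% for Ephb3. Plxnb2, a receptor of class 4 semaphorins, stood at 87.3 CPM (82.3 to 92.5) over dexamethasone cells and 14.1 CPM (12.2 to 16.1) over saline cells. The X-linked ligand Efnb1 stood at 25.9 CPM (23.2 to 28.8) over dexamethasone cells against 3.84 CPM (2.91 to 4.97) over saline cells. The cell that held the largest share of Ephb3, dexamethasone cell 5, also did so for Plxnb2, at 72.7%, and Efnb1, at 43.2%. Epha1 and Epha7 stood at 10.2 and 14.0 CPM over dexamethasone cells and at 2.76 and 5.05 CPM over saline cells, and 1 cell held 98.4% of the Epha7 counts under dexamethasone.

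Robo4 was the member with the largest ratio the other way. It stood at 0.0762 CPM (0.00193 to 0.425), a single count, over dexamethasone cells and at 147 CPM (141 to 153) over saline cells. It reached 10 CPM in 5 cells, all of them saline cells with Pecam1 above 100 CPM, and in none of the 20 cells with lower Pecam1. Efna1 stood at 0.686 CPM (0.314 to 1.30) over dexamethasone cells against 122 CPM (117 to 128) over saline cells, and 4 of the 5 cells at 10 CPM or more had high Pecam1. Sema7a had no count in 15 dexamethasone cells, which allows up to 0.229 CPM, and stood at 47.2 CPM (43.8 to 50.8) over saline cells, at least 207-fold lower under dexamethasone. All 3 cells with Sema7a were high in Pecam1. Without the 6 cells of high Pecam1, Robo4 stood at 0.0882 CPM over dexamethasone cells and 0.550 CPM over saline cells, and Sema7a had no count in either group.

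Efnb2 reached 10 CPM in 4 of 15 dexamethasone cells and 7 of 11 saline cells, at summed levels of 102 CPM (96.8 to 108) and 285 CPM (277 to 294). Its log2 ratio of -1.47 became 3.25 without the 6 cells of high Pecam1. A single dexamethasone cell, which was not among those 6, held 88.4% of that group's counts. Sema6a behaved alike, with a log2 ratio of -1.16 over all cells and 3.94 without those 6. For both, the direction thus depended on which cells were summed.

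For several of the other low members 1 cell held most of the saline counts. Sema4g, a class 4 semaphorin, and the receptor Ephb2 had no count in dexamethasone cells, and in saline cells 1 cell held 99.8% of the counts of Sema4g and 100% of those of Ephb2. Epha4 had no count in dexamethasone cells and stood at 16.8 CPM (14.8 to 19.0) over saline cells, with counts in 8 of 11 and 69.9% of them in 1 cell. Sema3c stood at 5.64 CPM (4.43 to 7.08) over dexamethasone cells against 88.4 CPM (83.7 to 93.4) over saline cells, where 1 cell held 82.6%. Plxna2 stood at 8.38 CPM (6.89 to 10.1) over dexamethasone cells against 115 CPM (109.7 to 121) over saline cells, where 1 cell held 70.2%. Sema5b, which fell in mesenchyme at 2 h, had no count in any of the 26 cells.

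**Figure D5:**
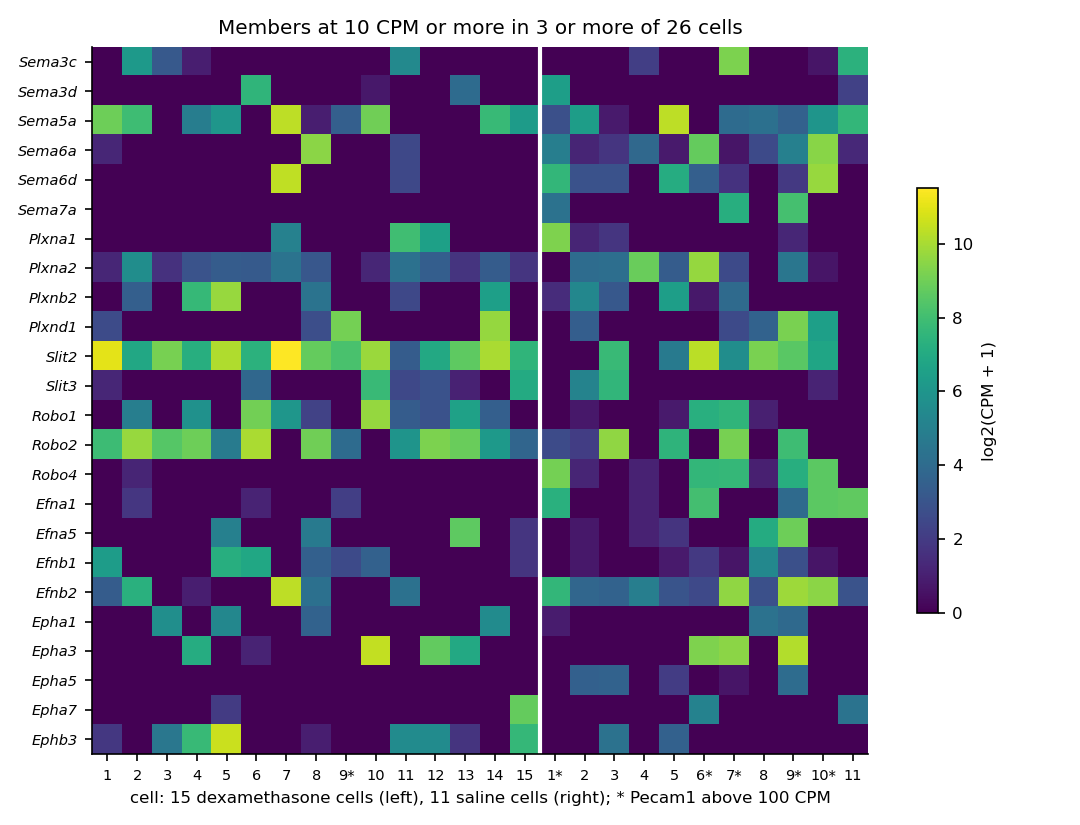
Heat map of log2(CPM + 1) for the 24 members at 10 CPM or more in at least 3 of 26 single cells, with the 15 dexamethasone cells left of the 11 saline cells and asterisks on cells with Pecam1 above 100 CPM. Slit2 and Robo2 are bright in most dexamethasone cells, at 10 CPM or more in 14 and 13 of them, and Robo4 is bright in saline cells with an asterisk.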

How the data were processed

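The authors deposited 4 tables of expected counts per gene, in which most values are whole and some are not (43 of 2146 member values here). The submitters' processing notes name the mm10 build and the tools Trim Galore, TopHat2 and Partek for RNA libraries among others, without versions, and which of them produced the expected counts is not stated in the deposited labels. The table of the CD106+ dexamethasone library holds 1 column, which was assigned to the sample of that label because no other sample names that table.

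Counts were rounded and tested with edgeR 4.0.16 in R 4.3.3 (quasi-likelihood test, filterByExpr, TMM scaling, robust fit), with Benjamini-Hochberg adjustment over all genes tested and a threshold of 0.05. DESeq2 1.42.0, limma-voom (limma 3.58.1), other scalings and filters, covariates, a block and the omission of each library were alternatives. The procedure was tested on simulated data with changes of known size. Of log2 changes of 1 it recovered 22.4% in the mesenchyme design and 17.3% in the CD106 design. Of log2 changes of 2 it recovered 67.7% and 75.8%. False calls were 5 of 92 and 2 of 94. CPM divides by the column total. Comparisons without replicates used log2(CPM + 1) and a 2-fold rule. No 2 libraries of a group agreed within sampling noise (chi-square per degree of freedom 9.15 to 37.9). Intervals and floors (3 counts) cover counting error only.

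Members and gene lists were chosen with earlier results of these data known. Every member could be named with its levels; full statistics were given for members past the threshold and up to 6 further ones of smallest p, for up to 8 each way at 10 CPM or more where there was no test, and for up to 4 partner genes a list and direction. Efnb2 and Sema6a in single cells were singled out after their values were seen. The 4 chromatin accessibility samples were not analysed here.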

Additional observations from a re-analysis of the deposited data

Results flagged for a closer look

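Plxnb1, a receptor of Sema4d, stood at 17.7 CPM in dexamethasone mesenchyme pool 2 and at 34.3, 36.9 and 37.3 CPM in the other 3 dexamethasone pools, and was the only 1 of 42 members whose lowest or highest pool stood this far apart. About 1 group in 20 does so by chance.

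Sema5b, Efnb2 and Ephb3 were lower in dexamethasone mesenchyme pools without overlap and stood the other way in the CD106+ dexamethasone library. Their log2 ratios to the CD106+ libraries were 2.32, 0.31 and 0.95, against log2 fold changes of -1.42, -1.38 and -1.43 in mesenchyme. Ephb3 did not pass the test in mesenchyme, and Efnb2 and Ephb3 were short of the 2-fold rule in the CD106+ dexamethasone library. Sema3e, Plxna3 and Ephb2 were also lower in mesenchyme without overlap, and did not pass the test. They stood the same way in the CD106+ dexamethasone library, at log2 ratios of -2.60, -1.63 and -1.67. Sema6d, likewise lower in mesenchyme without passing, lay between the CD106+ libraries in the dexamethasone library (log2 ratio -0.13). The share of all genes tested whose pools separate in this way is not given here. Sema5b was at 8.18 CPM in the CD106+ dexamethasone library against 0.602 and 1.12 CPM in CD106+ libraries. The difference between the experiments was not tested. The summed endothelial markers were at 2472 CPM in the CD106+ dexamethasone library against 134 and 114 CPM in CD106+ libraries, and their part in these ratios was not tested.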

How the results depend on the processing

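In mesenchyme the 2 members called became 0 with Xist as a covariate, 0 with the chondrocyte covariate, 0 with a replicate block and 0 to 1 when single pools were left out. The 2 partner genes called became 4 by DESeq2, 4 without a filter, 1 with Xist, 0 with the chondrocyte covariate, 0 with the replicate block and 1 to 3 without single pools. By DESeq2 the 2 members called in mesenchyme became 3, and without a filter Ephb3 also passed (edgeR adjusted p = 0.042). Epha1 turned to -0.14 on the log2 scale with the chondrocyte covariate. Between CD106 fractions, the 16 members became 7 to 22 and the 19 partner genes 6 to 33 without single libraries. The replicate block called 16 members and 18 partner genes there, with Efnb2 lost (edgeR adjusted p = 0.091) and Sema6a gained (0.041). Deviations of same-numbered libraries correlated weakly (r of -0.062 and 0.039 in mesenchyme, 0.023 in CD106 fractions). With groups of 2 libraries this value cannot decide whether the numbers pair them, and pairing stays unknown. The 25 members past 2-fold in the CD106+ dexamethasone library became 13 in an edgeR fit of 3 groups, which called 13.4% of all genes. Its treated arm is 1 library and its spread is borrowed from the other groups, so it is no check on the 2-fold rule. The causes of these shifts were not tested. Groups of 2 libraries, single treated samples and members under 10 CPM limit what could be detected.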
